A study of Mus musculus with 12 samples.

Results

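Of the 54537 genes in the deposited table, 44 are collagen genes, taken as every row whose symbol is Col, a number, the letter a and a second number. They comprise 9 fibrillar genes (types I, II, III, V and XI), 8 basement membrane genes (types IV, XV and XVIII) and 27 genes of other types. Poly(A) RNA was sequenced from mouse embryonic stem (ES) cells and from embryoid bodies, the floating aggregates that ES cells form as they differentiate. A knockout line with the label WT+1343KO-a14 (1343KO in what follows) was compared with a wild type line (WT). At day 0 the cells grew on gelatin in serum medium containing leukaemia inhibitory factor, which holds ES cells in the undifferentiated state, and at days 8 and 16 they were aggregates in serum medium lacking that factor. The 12 libraries form 6 groups of 2, namely 1343KO at days 0, 8 and 16 and WT at those days. The labels give a single 1343KO line, and do not say which gene the number stands for or what the leading WT+ means. From the series title, the study asked which long noncoding RNAs, and whether SNORA73, a small nucleolar RNA, matter for keeping or leaving pluripotency. The comparisons here show how collagen genes differed between the lines as ES cells and during differentiation.

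Collagens are secreted proteins wound from chains of repeating glycine-led triplets into trimers. Fibrillar collagens assemble outside the cell into the fibres of skin, bone, tendon and cartilage and are made mainly by fibroblasts, osteoblasts and chondrocytes. Type IV collagen instead forms the sheet-like network of basement membranes, and in the early mouse embryo it is made in quantity by primitive and parietal endoderm. The remaining types decorate fibrils, form beaded microfibrils or short networks, or span the cell membrane. Nascent chains need prolyl and lysyl hydroxylases and the chaperone Serpinh1 in the endoplasmic reticulum before they are secreted, trimmed and cross-linked.

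Values are FPKM, sequenced fragments scaled to transcript length and library depth. The steps between the smallest values put the depth at roughly 4812000 to 7918000 fragments a library, and a single fragment on a 5000 nt transcript then equals 0.0263 to 0.0433 FPKM. Snhg3, the noncoding host gene of the SNORA73 copies, was listed at 0 to 1.57 FPKM in the 6 1343KO libraries and at 8.31 to 61.1 FPKM in the 6 WT libraries. All samples are labelled embryonic stem cells. The summed FPKM of 7 pluripotency markers was 3849 to 3861, 2741 to 2790 and 2269 to 2276 in the 1343KO line at days 0, 8 and 16, and 3282 to 3327, 174 to 209 and 115 to 127 in WT at those days. Differences are in log2(FPKM + 1), a scale that makes changes of low genes look smaller than they are. They were tested with limma in the 16289 genes that reached 1 FPKM in 2 or more libraries. P-values were adjusted by Benjamini-Hochberg over all of these, and passing means an adjusted p below 0.05. Of the 44 collagen genes 33 met the filter (8 fibrillar, 6 basement membrane and 19 other). Of these 33, 26 reached 1 FPKM in some 1343KO library, 7 in WT libraries only and 3 of those 7 (Col8a1, Col14a1 and Col25a1) in WT at day 16 only. Such genes entered the test through the group in which they were high, so the counts below describe the tested members and do not stand for all 44.

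**Figure D1:**
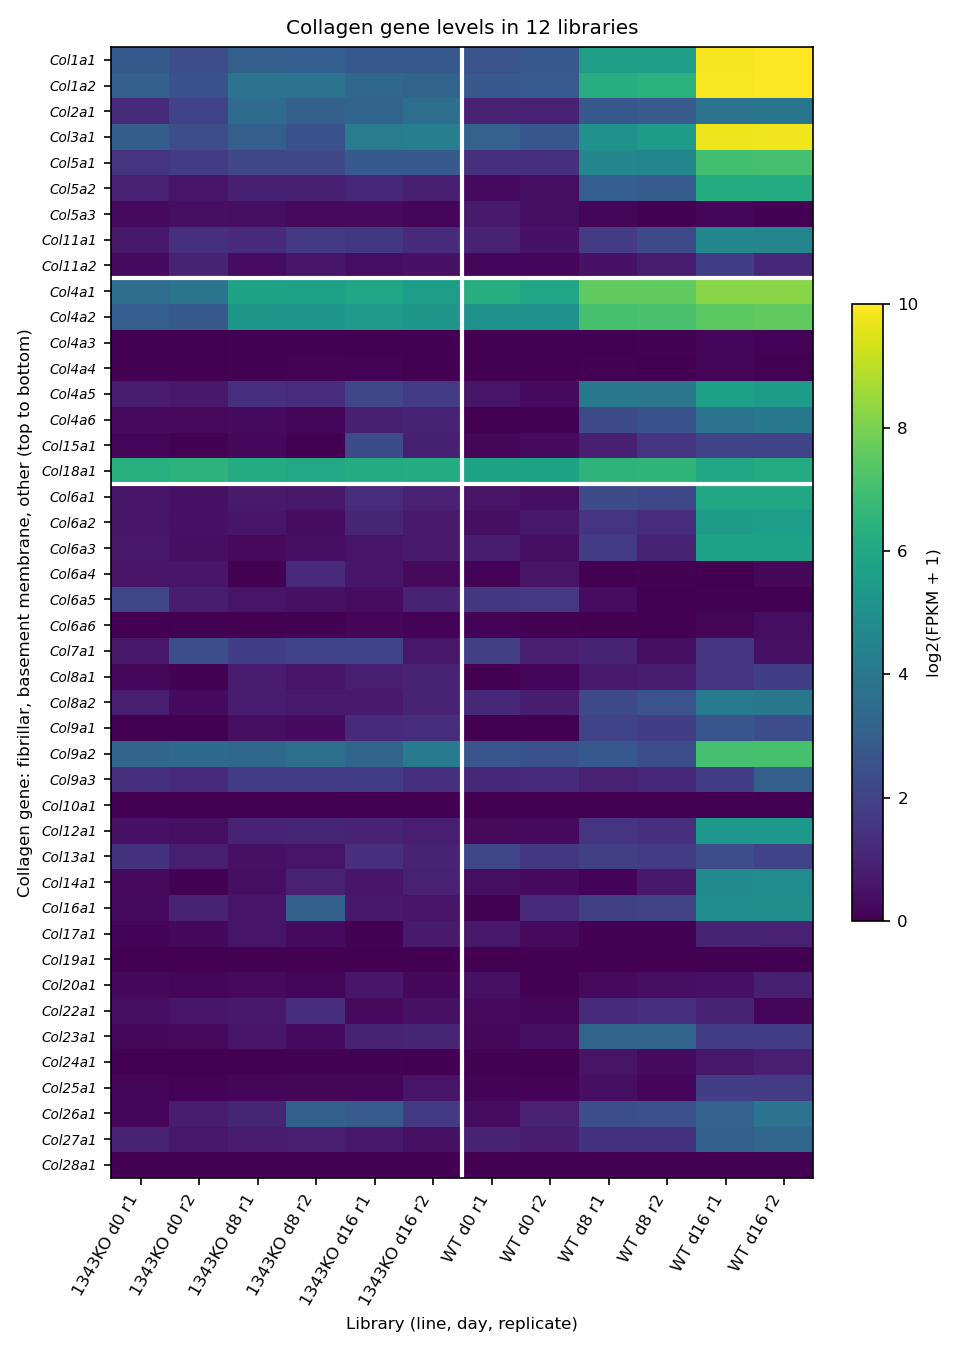
Level of each of the 44 collagen genes (rows: fibrillar, basement membrane and other, separated by white lines) in each library (columns: 1343KO at days 0, 8 and 16, then WT), as log2(FPKM + 1). The brightest cells are Col1a1, Col1a2 and Col3a1 in the WT day 16 libraries, at 855 to 1031 FPKM, while Col18a1 lies between 54.6 and 92.8 FPKM in all 12 libraries.

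The collagen output of the lines parted over the culture, and most in the fibrillar class. The summed fibrillar level in the 1343KO line was 25.4 and 21.8 FPKM at day 0, 43.7 and 39.3 at day 8, and 51.0 and 52.7 at day 16. The WT sum was 23.2 and 21.4 FPKM at day 0, 196 and 217 at day 8, and 3007 and 3182 at day 16. The lines overlapped at day 0 and were apart in both later samples. The basement membrane sum was 98.5 and 109, 164 and 157, and 179 and 162 FPKM in the 1343KO line at days 0, 8 and 16. In WT it was 163 and 149, 434 and 440, and 606 and 624 FPKM at those days, above the 1343KO line at each day. The other types summed to 21.5 and 22.5, 23.8 and 41.3, and 33.3 and 33.5 FPKM in the 1343KO line, and to 20.7 and 17.9, 47.3 and 44.1, and 441 and 461 FPKM in WT. In bulk RNA, fewer cells of a collagen-making type and less collagen RNA per cell cannot be told apart.

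The make-up of collagen RNA also differed. Basement membrane genes held 65.3% to 71.1% of collagen FPKM in every 1343KO library. In WT they held 78.8% and 79.1% at day 0, 64.1% and 62.8% at day 8, and 14.9% and 14.6% at day 16. Fibrillar genes held 19.4% and 21.2% of collagen FPKM in the 1343KO line at day 16, against 74.2% and 74.6% in WT. The gene with the highest level among the 44 was Col18a1 in all 6 1343KO libraries, Col4a1 in WT at days 0 and 8, and Col1a2 in WT at day 16. All collagen genes together held 0.0526% and 0.0499% of FPKM in the 1343KO line at day 16, against 0.881% and 0.950% in WT.

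**Figure D2:**
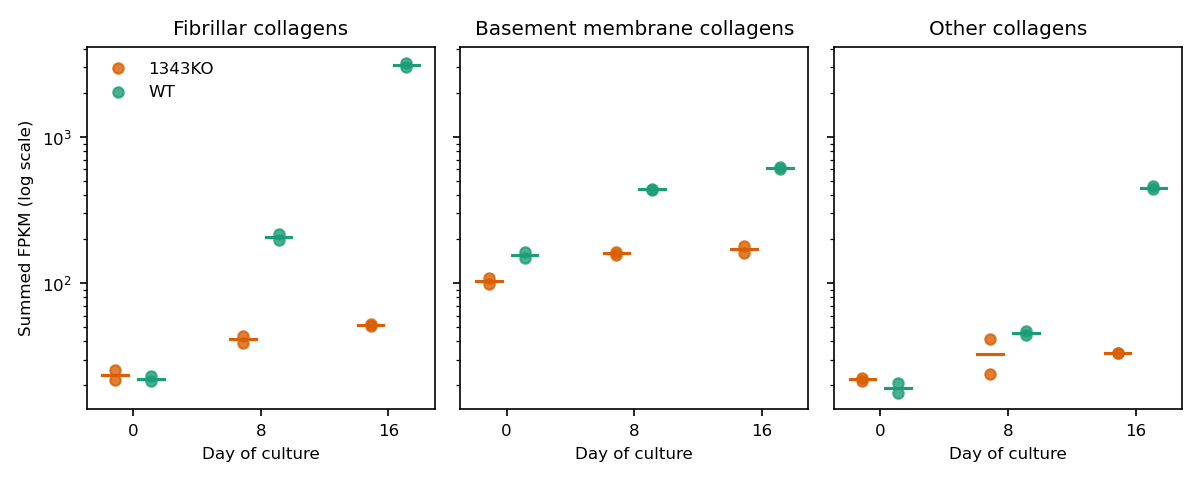
Summed FPKM of the fibrillar, basement membrane and other collagen genes (panels, log axis) by day, for the 1343KO line (orange) and WT (green). Points are single libraries and bars the mean of 2. The fibrillar sums overlap at day 0 and stand at 51.0 and 52.7 against 3007 and 3182 FPKM at day 16.

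In the fibrillar class, the main chains of types I, III and V differed between the lines at days 8 and 16 and not detectably at day 0. At day 0 none of the 8 tested fibrillar genes passed (adjusted p of 0.23 to 0.945, with unadjusted p under 0.05 for Col2a1 and Col5a1), where 3.71% of all tested genes did. At day 8, 5 of 8 were lower in the 1343KO line and 3 did not pass, and 19.6% of all genes were lower. At day 16, 7 of 8 were lower and 1 did not pass, and 24.1% of all genes were lower. In either direction 42.8% of all tested genes passed at day 8 and 52.6% at day 16. Genes higher in the 1343KO line made up 54.3% of those calls at day 8 (41.0% with TPM scaling) and 54.1% at day 16 (44.1% with median-of-ratios scaling). The median log2 difference of the tested fibrillar genes was 0.29, -2.29 and -4.69 at days 0, 8 and 16, beside 0.00, 0.06 and 0.07 over all tested genes.

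Type I collagen, the main fibre of bone and skin, is built from the products of Col1a1 and Col1a2. Col1a1 (ENSMUSG00000001506, chromosome 11, 94936224 to 94953042 of GRCm38) was at 6.15 and 4.12 FPKM in the 1343KO line at day 0, 7.24 and 7.05 at day 8, and 5.81 and 5.76 at day 16. WT held 4.92 and 5.91 FPKM at day 0, 47.3 and 48.5 at day 8, and 937 and 1018 at day 16. The 1343KO libraries thus stayed between 4.12 and 7.24 FPKM, and the lines overlapped at day 0 only. The difference between the lines was -2.59 ± 0.15 (SE) at day 8 (adjusted p = 1.91e-06) and -7.17 ± 0.15 at day 16 (adjusted p = 4.8e-09). Col1a2 (ENSMUSG00000029661, chromosome 6, 4504814 to 4541544) was at 9.04 and 8.47 FPKM in the 1343KO line at day 16, against 976 and 1031 FPKM in WT. Its difference was -2.52 ± 0.15 at day 8 and -6.69 ± 0.15 at day 16, and the day 16 groups were far apart. Within the 1343KO line Col1a2 was higher at day 8 than at day 0 (12.9 and 12.9 against 7.35 and 4.74 FPKM; log2 change 1.01 ± 0.15, adjusted p = 0.00159), a call that ended on the 4 libraries compared alone (adjusted p = 0.0903). The ratio of Col1a1 to Col1a2, per length, was 0.838 and 0.870 in the 1343KO line at day 0, against 0.826 and 0.937 in WT. At day 8 it was 0.561 and 0.547 in the 1343KO line, against 0.636 and 0.579 in WT. At day 16 it was 0.642 and 0.680 in the 1343KO line, against 0.960 and 0.988 in WT. The WT ratios of day 8 were thus below the 1343KO ratios of day 16.

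Type III collagen, made from Col3a1 alone (ENSMUSG00000026043, chromosome 1, 45311538 to 45349706), accompanies type I in elastic tissues. Col3a1 was at 6.72 and 4.17 FPKM in the 1343KO line at day 0, 7.15 and 4.71 at day 8, and 17.8 and 18.3 at day 16. The WT levels were 7.84 and 5.49, 34.6 and 44.1, and 855 and 892 FPKM. It was at its highest in both 1343KO libraries of day 16. Its difference between the lines was -2.55 ± 0.24 (SE) at day 8 and -5.52 ± 0.24 at day 16 (adjusted p = 3.17e-05 and 1.66e-07). The change from day 8 to day 16 in the 1343KO line, 1.48 ± 0.24, passed (adjusted p = 0.0238). That call ended without 1343KO day 8 replicate 2, either 1343KO day 16 library or either WT day 16 library (adjusted p of 0.0652 to 0.183), without the filter (0.187) and on the 4 libraries alone (0.3). The change from day 0 to day 16 in the 1343KO line, 1.59 ± 0.24, passed under every alternative tried (adjusted p = 0.00124).

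The RefSeq promoter windows of Col1a2 and Col3a1, 250 bases before to 50 after the start site on GRCm38.p6, are printed because these genes had among the largest differences of the 44 and differ in promoter letters. The windows are chr6:4505368-4505667 (plus strand) for Col1a2 and chr1:45311288-45311587 (plus strand) for Col3a1, 5′ to 3′. The RefSeq start site of Col1a2, 4505618, lies downstream of the gene start given above, 4504814. Its window is therefore inside the gene as given there. Capitals mark every match to 3 short motifs on either strand. These are the CCAAT box (or ATTGG on the other strand), the TATA box spelled TATAAA (or TTTATA on the other strand) and the GC box spelled GGGCGG (or CCGCCC on the other strand).
Col1a2: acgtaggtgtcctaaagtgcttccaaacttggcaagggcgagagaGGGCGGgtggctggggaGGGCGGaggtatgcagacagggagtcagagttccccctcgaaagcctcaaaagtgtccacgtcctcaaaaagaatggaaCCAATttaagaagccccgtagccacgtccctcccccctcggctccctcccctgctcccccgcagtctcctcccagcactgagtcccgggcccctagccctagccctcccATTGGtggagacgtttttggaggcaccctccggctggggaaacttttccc
Col3a1: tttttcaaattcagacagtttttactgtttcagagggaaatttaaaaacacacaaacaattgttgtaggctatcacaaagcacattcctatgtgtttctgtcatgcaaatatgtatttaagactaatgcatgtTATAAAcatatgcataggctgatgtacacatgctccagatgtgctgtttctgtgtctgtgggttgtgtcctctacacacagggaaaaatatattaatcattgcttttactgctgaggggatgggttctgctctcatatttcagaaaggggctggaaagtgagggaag
The Col1a2 window held 2 matches to CCAAT and 2 to GGGCGG and was 61.0% G and C, and the Col3a1 window held 1 match to TATAAA, none of the others, and was 37.7% G and C. Windows were in the table for 35 of the 44 genes, Col1a1 not among them. GGGCGG matched 5 of 6 fibrillar, 5 of 7 basement membrane and 12 of 22 other windows, beside 35.7% of all 32851 windows. CCAAT matched 3, 4 and 5 of them beside 37.4%, and TATAAA 2, 0 and 3 beside 13.6%. A match is a description of letters and not a binding site.

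Type V collagen sits inside type I fibrils and sets their width. Like the type I and III genes, Col5a1 and Col5a2 had their highest levels in WT at day 16, followed by WT at day 8. At day 0 both 1343KO libraries were above both WT libraries in Col5a1 and in Col5a2, though neither difference passed. Col5a1 was at 1.95 and 2.33, 3.40 and 3.34, and 6.14 and 5.995 FPKM in the 1343KO line at days 0, 8 and 16, and at 1.61 and 1.55, 24.1 and 23.3, and 126 and 133 FPKM in WT. Its difference at day 16 was -4.21 ± 0.12 (SE), and its change from day 0 to day 16 in the 1343KO line was 1.17 ± 0.12 (adjusted p = 0.000121). Col5a2 was at 1.19 and 0.859 FPKM in the 1343KO line at day 16, against 73.3 and 70.9 FPKM in WT (-5.18 ± 0.18). The ratio of Col5a1 to Col5a2 was 2.17 and 4.81, 4.12 and 3.93, and 5.16 and 6.98 in the 1343KO line at days 0, 8 and 16, and 6.73 and 5.03, 3.42 and 3.53, and 1.72 and 1.88 in WT. It was thus higher in the 1343KO libraries than in those of WT at days 8 and 16. At day 0 it was lower, but the nearest values, 4.81 and 5.03, were close and the 1343KO replicates were wide apart. The day 0 ratios also rest on low Col5a2 levels, 0.900 and 0.484 FPKM in the 1343KO line and 0.239 and 0.308 FPKM in WT. Col5a3, the remaining type V chain, did not exceed 0.671 FPKM in any library and was not tested.

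The class also holds the cartilage collagens, types II and XI, of which the type XI genes were lower in the 1343KO line at day 16 and Col2a1 did not pass. Col2a1, the main collagen of cartilage (ENSMUSG00000022483, chromosome 15, 97975602 to 98004695), was at 1.34 and 3.06, 10.3 and 7.44, and 8.47 and 11.4 FPKM in the 1343KO line at days 0, 8 and 16. The WT levels were 0.964 and 0.907, 5.84 and 6.32, and 13.1 and 13.7 FPKM. Over 16 days it rose in the 1343KO line (1.82 ± 0.26 (SE), adjusted p = 0.00111; 0.0628 on the 4 libraries alone) and in WT (2.89 ± 0.26, adjusted p = 1.04e-05). The lines did not differ past the threshold at any day (adjusted p = 0.23 at day 0, 0.187 at day 8 and 0.229 at day 16). Both 1343KO libraries were nevertheless above both WT libraries at days 0 and 8 and below both at day 16. Col11a1, which is co-assembled with type II, was at 2.07 and 1.33 FPKM in the 1343KO line at day 16, against 24.4 and 22.8 FPKM in WT (-3.20 ± 0.31, adjusted p = 2.24e-05). Col11a2 was at 0.288 and 0.412 against 2.61 and 1.20 FPKM there (-1.06 ± 0.30, adjusted p = 0.0154). The Col11a2 call ended without 1343KO day 16 replicate 1 or WT day 16 replicate 1 (adjusted p of 0.0695 and 0.108), without the filter (0.0848) and on the 4 libraries alone (0.0544). Of 5 tested cartilage markers, 3 were higher in the 1343KO line at day 16 and 2 lower, where 28.5% of all genes were higher and 24.1% lower. The summed FPKM of the 7 in the list was 8.41 to 9.32 in the 1343KO line, against 11.7 to 12.4 in WT, and Ucma was listed at 0 in both WT libraries. Their part in the Col11a1 difference was not tested.

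**Figure D3:**
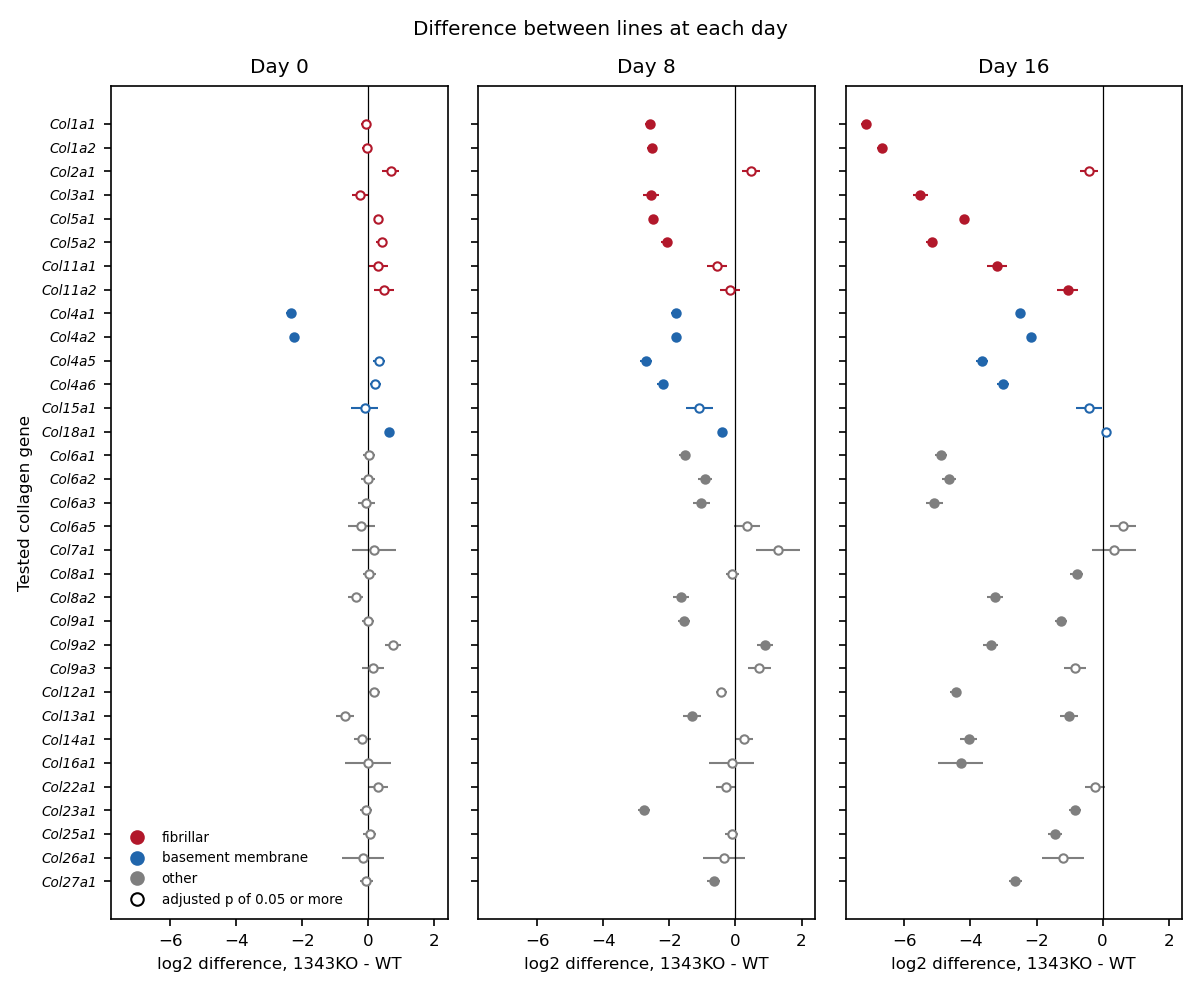
Difference between the lines (1343KO minus WT, log2(FPKM + 1) scale) at days 0, 8 and 16 for the 33 tested collagen genes, coloured by class. Bars are standard errors and open points did not pass. At day 0 the points past the threshold are Col4a1, Col4a2 and Col18a1, and at day 16 the points farthest to the left are Col1a1 (-7.17) and Col1a2 (-6.69).

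In the basement membrane class the lines differed already as ES cells, with Col4a1 and Col4a2 lower and Col18a1 higher in the 1343KO line. At day 0, 2 of 6 tested genes were lower in the 1343KO line (2.12% of all tested genes were lower), 1 was higher (1.59% of all were higher) and 3 did not pass. At day 8, 5 of 6 were lower (19.6% of all tested genes were lower) and 1 did not pass. At day 16, 4 of 6 were lower (24.1% of all were lower) and 2 did not pass. The median difference of the 6 was 0.05, -1.81 and -2.33 at days 0, 8 and 16.

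Col4a1 and Col4a2 encode the chains of the most widespread type IV trimer and lie head to head on chromosome 8, at 11198423 to 11312826 (Col4a1, ENSMUSG00000031502, minus strand) and 11312805 to 11449287 (Col4a2, ENSMUSG00000031503, plus strand). Col4a1 was at 10.8 and 13.5 FPKM in the 1343KO line at day 0, 53.9 and 52.3 at day 8, and 58.2 and 47.9 at day 16. WT held 73.6 and 59.0, 190 and 188, and 301 and 302 FPKM. Col4a2 was at 6.88 and 6.18, 38.9 and 37.8, and 41.0 and 38.5 FPKM in the 1343KO line, and at 34.6 and 34.6, 135 and 138, and 178 and 187 FPKM in WT. In both genes the 1343KO line was below WT at every day, with no overlap. The differences at days 0, 8 and 16 were -2.35, -1.81 and -2.49 (SE 0.13 each) for Col4a1 and -2.24, -1.81 and -2.17 (SE 0.07 each) for Col4a2. All of these passed (adjusted p of 2.78e-05, 7.3e-06 and 5.53e-07 for Col4a1, and 2.74e-06, 2.81e-07 and 5.49e-08 for Col4a2). On the 4 day 0 libraries alone both day 0 calls ended (adjusted p = 0.159 and 0.128), where limma called 0 of the 33 collagen genes (5 at an unadjusted p under 0.05) and 0 of all 16289 genes (2489 at an unadjusted p under 0.05).

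Both genes rose with time in the 1343KO line as well as in WT. From day 0 to day 16 Col4a1 rose by 2.04 ± 0.13 (SE) in the 1343KO line (adjusted p = 1.01e-05) and by 2.18 ± 0.13 in WT, and Col4a2 rose by 2.44 ± 0.07 and by 2.36 ± 0.07. The difference between these changes was -0.14 ± 0.19 for Col4a1 (adjusted p = 0.592) and 0.07 ± 0.10 for Col4a2 (adjusted p = 0.611). The ratio of Col4a1 to Col4a2 was 1.25 to 2.18 over the 6 1343KO libraries and 1.36 to 2.13 over the 6 WT libraries. Chromosome 8 genes as a group had lower differences than other genes. Over genes that averaged 20 FPKM or more, the median log2 difference of the 214 on chromosome 8 was -0.42, -0.16 and 0.06 at days 0, 8 and 16, beside 0.00, 0.25 and 0.40 for the 3910 others. Of those 214 genes, 2, 8 and 7 were as low as Col4a2 or lower at days 0, 8 and 16, Col4a2 included. Of 10 markers of parietal and primitive endoderm, 9 were lower in the 1343KO line at day 0 (beside 2.12% of all tested genes), 6 were lower and 1 higher at day 8 (beside 19.6% and 23.3%), and 7 were lower at day 16 (beside 24.1%). Their summed FPKM was 116 to 119, 321 to 327 and 286 to 295 in the 1343KO line at days 0, 8 and 16, and 375 to 383, 971 to 981 and 1569 to 1572 in WT, with none at 0 in both libraries of any group. Lama1, Lamb1 and Sparc, which are described among the partners, are in that list. The part of the chromosome and of that lineage in the Col4a1 and Col4a2 difference was not tested.

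The windows of this pair are printed because the genes share a promoter region: their RefSeq start sites are 21 bases apart, and the 300-base windows have 78 bases in common, read on opposite strands. They are chr8:11312777-11313076 (minus strand) for Col4a1 and chr8:11312555-11312854 (plus strand) for Col4a2, with capitals for the same motifs.
Col4a1: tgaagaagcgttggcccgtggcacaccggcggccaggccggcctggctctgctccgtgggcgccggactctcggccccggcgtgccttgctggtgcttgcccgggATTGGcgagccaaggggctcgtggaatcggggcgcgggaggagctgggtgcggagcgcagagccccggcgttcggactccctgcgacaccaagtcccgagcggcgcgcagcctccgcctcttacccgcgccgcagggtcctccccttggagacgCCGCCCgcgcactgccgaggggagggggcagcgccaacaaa
Col4a2: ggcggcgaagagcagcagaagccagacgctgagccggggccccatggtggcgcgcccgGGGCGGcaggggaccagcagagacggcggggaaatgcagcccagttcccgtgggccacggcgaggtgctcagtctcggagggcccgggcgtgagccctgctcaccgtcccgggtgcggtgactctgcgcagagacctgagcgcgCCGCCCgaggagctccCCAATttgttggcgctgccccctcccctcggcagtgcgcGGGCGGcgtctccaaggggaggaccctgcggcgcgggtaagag
Each window held 1 match to CCAAT, at -145 in Col4a1 and -32 in Col4a2 with the start site as position 0, and none to TATAAA. The 2 transcripts overlap by 22 exon bases on opposite strands, and whether the counting used strand is not given in the sources used here. Reads in those bases could be split between them.

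The other type IV pair, Col4a5 and Col4a6 lies on chromosome X and encodes chains of kidney, skin and smooth muscle basement membranes. Col4a5 was at 0.760 and 0.609, 1.52 and 1.41, and 3.42 and 2.31 FPKM in the 1343KO line at days 0, 8 and 16. WT held 0.471 and 0.217, 15.4 and 14.7, and 49.7 and 45.1 FPKM. Unlike Col4a1, it was not lower in the 1343KO line at day 0, where both 1343KO libraries were above both WT libraries (adjusted p = 0.423). Its difference was -2.70 ± 0.19 (SE) at day 8 and -3.66 ± 0.19 at day 16. Col4a6 was at 0.858 and 0.917 FPKM in the 1343KO line at day 16, against 13.2 and 15.4 FPKM in WT (-3.01 ± 0.18). Col4a3 and Col4a4, the chains of the glomerular trimer, did not exceed 0.125 FPKM in any library and were not tested.

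Col18a1 and Col15a1 encode the proteoglycan collagens of basement membranes, whose cut ends include the fragment endostatin. Col18a1 (ENSMUSG00000001435, chromosome 10, 77052178 to 77166548) was at 79.7 and 88.3 FPKM in the 1343KO line at day 0, 69.7 and 65.4 at day 8, and 71.1 and 71.6 at day 16. The WT levels were 54.6 and 54.6, 89.0 and 92.8, and 61.2 and 70.6 FPKM. It was thus higher in the 1343KO line at day 0 (0.61 ± 0.08 (SE), adjusted p = 0.00538) and lower at day 8 (-0.42 ± 0.08, adjusted p = 0.00292), with no overlap at either day. The day 0 call ended on the 4 libraries alone (adjusted p = 0.164). At day 16 the difference did not pass (adjusted p = 0.271). Col15a1 was at 4.08 and 0.860 FPKM in the 1343KO line at day 16, against 3.08 and 3.09 FPKM in WT, and did not pass at any day. Its 1343KO day 16 libraries were on either side of those of WT.

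In the 27 other types the lines differed mainly at day 16. At day 0 none of the 19 tested genes passed with limma, and 2, Col9a2 and Col13a1, had an unadjusted p under 0.05. At day 8, 8 were lower in the 1343KO line (19.6% of all genes were lower), 1 was higher (23.3% of all genes were higher) and 10 did not pass. At day 16, 14 were lower (24.1% of all genes were lower) and 5 did not pass. The median difference of the 19 was -0.01, -0.35 and -1.44 at days 0, 8 and 16.

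Type VI collagen forms beaded filaments around mesenchymal cells from the products of Col6a1, Col6a2 and Col6a3. Col6a1 was at 0.466 and 0.353, 0.655 and 0.567, and 1.39 and 0.906 FPKM in the 1343KO line at days 0, 8 and 16. WT held 0.431 and 0.342, 3.87 and 3.53, and 61.3 and 63.3 FPKM. The day 16 difference was -4.89 ± 0.17 (SE; adjusted p = 6.6e-08), and the groups overlapped at day 0. Col6a2 was at 1.13 and 0.671 FPKM in the 1343KO line at day 16, against 45.4 and 47.8 FPKM in WT (-4.66 ± 0.20), and Col6a3 was at 0.479 and 0.653 against 52.7 and 52.6 FPKM (-5.10 ± 0.26). Each was lower at day 8 too (-1.54, -0.93 and -1.04), though the Col6a3 call of day 8 ended without 1343KO or WT day 8 replicate 1 (adjusted p of 0.0532 to 0.0734) and on the 4 day 8 libraries alone (0.0732). Col6a5, a further type VI chain, went the other way in time. It was at 3.35 and 0.695, 0.471 and 0.370, and 0.250 and 1.01 FPKM in the 1343KO line at days 0, 8 and 16, and at 2.11 and 2.18, 0.257 and 0, and 0.0362 and 0.0176 FPKM in WT. It fell in WT by 1.61 ± 0.40 over 16 days (adjusted p = 0.00615; 0.0546 without the filter) and did not differ past the threshold between the lines. Col6a4 reached 1 FPKM in a single library, and Col6a6 in none.

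The fibril-associated types (FACITs) coat fibrils and link them to other matrix. Col12a1 and Col14a1, which coat type I fibrils in tendon and dermis, were at 0.977 and 0.779 FPKM and at 0.513 and 0.872 FPKM in the 1343KO line at day 16. In WT they were at 39.7 and 39.7 FPKM and at 25.6 and 28.5 FPKM. Their differences were -4.44 ± 0.17 (SE) and -4.06 ± 0.26, and neither passed at day 8. Col16a1 was at 0.610 and 0.502 FPKM in the 1343KO line at day 16, against 29.4 and 29.9 FPKM in WT (-4.30 ± 0.68). At day 8 the 1343KO replicates of Col16a1 disagreed, at 0.477 and 7.47 FPKM, against 2.71 and 2.98 FPKM in WT. The library with 7.47 had the lowest estimated depth of the 12, at which a single fragment on a 5000 nt transcript equals 0.0433 FPKM. The cause of the disagreement was not tested.

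Type IX collagen, the FACIT of cartilage fibrils, had chains with different patterns. Col9a2 was at 8.50 and 9.80, 9.43 and 11.2, and 8.54 and 16.0 FPKM in the 1343KO line at days 0, 8 and 16. The WT levels were 5.31 and 4.76, 5.83 and 4.36, and 130 and 136 FPKM. Both 1343KO libraries were above both WT libraries at days 0 and 8 and below them at day 16. The difference passed at day 8 (0.90 ± 0.24 (SE), adjusted p = 0.0147) and day 16 (-3.39 ± 0.24, adjusted p = 3.49e-06) and not at day 0 (adjusted p = 0.144). The day 8 call ended without 1343KO or WT day 8 replicate 2 (adjusted p of 0.084 to 0.0972) and without the filter (0.114). Col9a1 was at 1.33 and 1.49 FPKM in the 1343KO line at day 16, against 5.32 and 4.29 FPKM in WT (-1.26 ± 0.18). It was listed at 0 in all 4 day 0 libraries. Col9a3 was at 2.53 and 1.57 against 2.55 and 7.11 FPKM at day 16 and did not pass at any day. It shares 234 exon bases on the opposite strand with Tcfl5, which reached 24.9 FPKM, so its reads are uncertain. Of the other FACITs, Col22a1 did not pass between the lines, Col20a1 stayed under 1 FPKM and Col19a1 was listed at 0 in all libraries.

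The short chain collagens of the eye and of vessel walls, Col8a1 and Col8a2, were both lower in the 1343KO line at day 16. Col8a2 was at 0.636 and 0.987 FPKM there, against 17.2 and 15.3 FPKM in WT (-3.25 ± 0.24 (SE)). Col8a1 was at 0.800 and 0.955 against 1.90 and 2.58 FPKM (-0.78 ± 0.20, adjusted p = 0.00788), a call that ended with a pseudocount of 0.1 (adjusted p = 0.0826). Col10a1, a marker of hypertrophic cartilage, was listed at 0 in all libraries.

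Among the transmembrane types, Col23a1 was a member whose level in WT was highest at day 8. It was at 0.510 and 0.220 FPKM in the 1343KO line at day 8, against 8.30 and 8.29 FPKM in WT (-2.78 ± 0.18 (SE), adjusted p = 3.75e-06). At day 16 it was at 0.957 and 1.03 against 2.53 and 2.57 FPKM (-0.83 ± 0.18, adjusted p = 0.00368). Between days 8 and 16 it fell by 1.39 ± 0.18 in WT (adjusted p = 0.000497). Col13a1 was at 0.372 and 0.464 FPKM in the 1343KO line at day 8, against 2.69 and 2.40 FPKM in WT (-1.32 ± 0.28, adjusted p = 0.00406). It was at 1.65 and 0.954 against 4.17 and 3.08 FPKM at day 16 (-1.01 ± 0.28, adjusted p = 0.0126). The day 16 call ended without 1343KO day 16 replicate 2 or WT day 16 replicate 1 (adjusted p of 0.0832 to 0.087) and without the filter (0.0649). Col25a1, a collagen of neurons and muscle, was at 0.132 and 0.472 against 2.61 and 2.41 FPKM at day 16 (-1.44 ± 0.20). Col17a1, a hemidesmosome protein of skin epithelium, stayed under 1 FPKM throughout.

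The remaining types held both called members and members with wide spread. Col27a1, a fibril-like collagen of cartilage that the numbering leaves outside the fibrillar class, was at 0.618 and 0.356 FPKM in the 1343KO line at day 16, against 7.65 and 8.94 FPKM in WT (-2.65 ± 0.20 (SE)). Its day 8 difference of -0.66 ± 0.20 passed (adjusted p = 0.0245) but ended without any 1 of the 4 day 8 libraries (adjusted p of 0.0602 to 0.0979). Col26a1 was at 1.03 and 7.63 FPKM in the 1343KO libraries of day 8, against 4.30 and 4.39 FPKM in WT, and did not pass at any day. Col7a1, which forms the anchoring fibrils below the epidermis, was at 0.546 and 4.35 FPKM in the 1343KO line at day 0, against 2.70 and 0.799 FPKM in WT, and passed in none of the 12 contrasts. At day 0 the lines overlapped. At day 8 it was at 2.64 and 3.09 FPKM in the 1343KO line, against 0.944 and 0.304 FPKM in WT, with no overlap. Col24a1 stayed under 1 FPKM and Col28a1 was listed at 0 in all libraries.

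Over 16 days, 29 of the 33 tested collagen genes were higher in WT at day 16 than at day 0 (32.7% of all genes were higher), 1 was lower (28.5%) and 3 did not pass, where 61.2% of all genes passed. In the 1343KO line 13 of 33 were higher over the same time (18.2% of all genes were higher), none was lower (8.60%) and 20 did not pass, where 26.8% of all genes passed. The median change over all tested genes was 0.11 in the 1343KO line and 0.02 in WT. By class, the 13 were 4 fibrillar, 5 basement membrane and 4 other genes. Of these, Col3a1, Col5a1, Col4a1, Col4a2 and Col9a1 passed under every alternative that could be fitted. The Col1a2 call (0.49 ± 0.15, adjusted p = 0.0405) ended without any 1 library other than 1343KO day 0 replicate 1 (adjusted p of 0.0531 to 0.194), and also without the filter, with either scaling, with the replicate block and on the 4 libraries alone (0.051 to 0.253). The Col4a6 call ended without any 1 of the 4 1343KO libraries of days 0 and 16 (0.0674 to 0.0838). Those of Col15a1 and Col6a1 ended without either 1343KO day 0 library or 1343KO day 16 replicate 1 (0.0754 to 0.0977 and 0.0674 to 0.17). That of Col8a1 ended without 1343KO day 0 replicate 2 or either 1343KO day 16 library (0.0507 to 0.094), and that of Col23a1 without 1343KO day 0 replicate 1 or day 16 replicate 2 (0.0513 to 0.0577). On the 4 libraries alone the calls of Col15a1, Col6a1, Col2a1 and Col4a5 ended too (0.0524 to 0.162), as did those of Col15a1 without the filter (0.154) and of Col6a1 with the filter at a mean of 5 FPKM (0.0583). The highest change in the 1343KO line was that of Col4a2 (2.44 ± 0.07 (SE)), and in WT that of Col1a1 (7.26 ± 0.15).

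From day 0 to day 8, 6 members rose and 1 fell in the 1343KO line (15.0% of all genes were higher and 8.51% lower, 23.5% in all), against 23 that rose and 1 that fell in WT (26.8% higher and 24.5% lower, 51.3% in all). Those that rose in the 1343KO line were Col1a2, Col2a1, Col5a1, Col4a1, Col4a2 and Col12a1, and Col18a1 fell. The Col12a1 call ended without any 1 of the 1343KO libraries of days 0 and 8 (adjusted p of 0.0852 to 0.121). The Col5a1 call ended without 1343KO day 0 replicate 1 or either 1343KO day 8 library (0.0555 to 0.0765), and that of Col18a1 without 1343KO day 0 replicate 2 or either 1343KO day 8 library (0.0531 to 0.152). From day 8 to day 16 Col3a1 and Col5a1 rose in the 1343KO line and none fell (0.602% of all genes were higher and 0.203% lower, 0.804% in all), against 24 that rose and 2 that fell in WT (14.1% and 13.5%, 27.6% in all). The Col5a1 call of days 8 to 16 ended without any 1 of the 8 libraries of those days (adjusted p of 0.0697 to 0.172), and the 1343KO count was 0 to 3 when single libraries were left out.

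The change from day 0 to day 16 differed between the lines for 24 members, each with the lower change in the 1343KO line (18.2% of all genes lay in that direction and 21.7% in the other, 40.0% in all). The 8 tested fibrillar genes were among them, with a median difference of -4.87, while Col4a1, Col4a2 and Col15a1 were not. From day 0 to day 8, 13 members had the lower change in the 1343KO line (12.7% of all genes) and Col4a2 the higher (15.6%), where 28.3% of all genes passed. From day 8 to day 16, 19 had the lower change (8.20%) and 2 the higher (8.50%), where 16.7% passed.

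**Figure D4:**
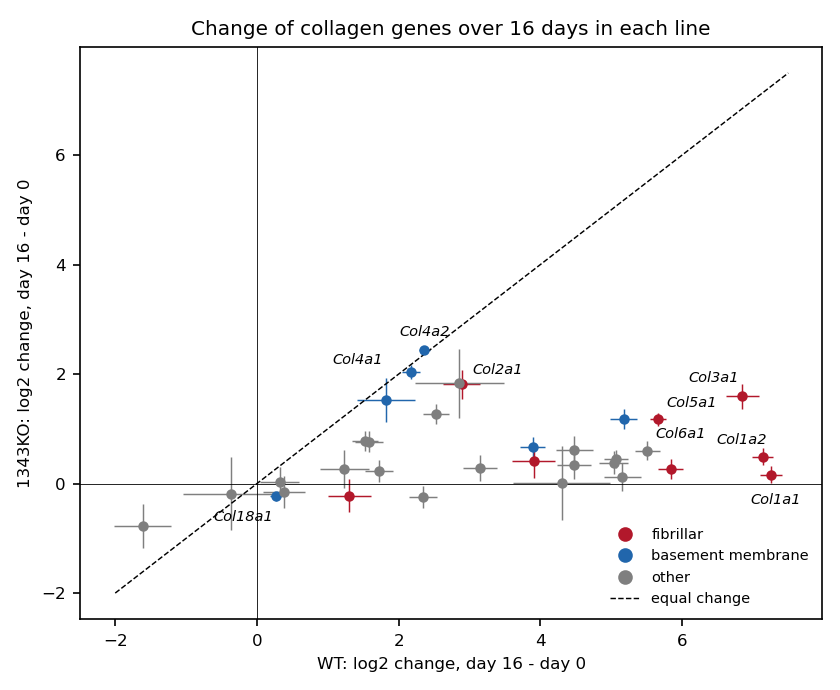
Change from day 0 to day 16 of the 33 tested collagen genes in the 1343KO line (vertical) and in WT (horizontal), log2(FPKM + 1) scale, coloured by class, with standard errors. Col4a1 and Col4a2 lie close to the dashed line of equal change, while Col1a1 lies at 0.16 in the 1343KO line and 7.26 in WT.

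Genes that fold, modify and secrete collagen were lower in the 1343KO line along with the chains. Of 21 tested in that list, 4 were lower at day 0, 15 at day 8 and 20 at day 16, and none was higher (median differences -0.12, -0.82 and -1.75). Over all tested genes, 2.12%, 19.6% and 24.1% were lower at days 0, 8 and 16, and 1.59%, 23.3% and 28.5% were higher, and the counts of the lists that follow stand beside these shares. At day 0 the Plod2 call ended without any 1 library of day 0, of 1343KO day 16 or of WT day 8 (adjusted p of 0.0571 to 0.195), and that of Colgalt1 without WT day 0 replicate 1 (0.0578). No day 0 call of any list held on the day 0 libraries alone, where no gene passed. Serpinh1, the collagen chaperone, was at 41.6 and 41.5, 89.1 and 82.7, and 103 and 106 FPKM in the 1343KO line at days 0, 8 and 16. In WT it was at 112 and 107, 394 and 426, and 512 and 558 FPKM, above the 1343KO line at each day. Its difference was -1.38, -2.24 and -2.34 (adjusted p = 1.37e-05, 6.79e-08 and 2.19e-08; 0.128 on the day 0 libraries alone). The prolyl hydroxylase subunit P4ha1 was also lower at day 0 (-1.21, adjusted p = 0.000263; 0.159 on the day 0 libraries alone) and at day 8 (-1.17). At day 16 the proline isomerase Fkbp10 (-2.52), the lysyl hydroxylase Plod2 (-2.19) and P4hb (-1.25), the other prolyl hydroxylase subunit, had the smallest p after Serpinh1.

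Of 11 tested genes that trim and cross-link procollagen, none passed at day 0, 6 were lower and 2 higher in the 1343KO line at day 8, and 9 were lower and 2 higher at day 16 (median -1.27). Lox, the enzyme that cross-links fibrils, was at 0.825 and 0.539 FPKM in the 1343KO line at day 16, against 104 and 98.9 FPKM in WT (-5.93, adjusted p = 3.74e-08). The procollagen peptidase Adamts2 (-2.96), the cross-linking enzyme Loxl2 (-2.63) and Pcolce, which speeds removal of the C-propeptide (-2.85), were lower too. Adamts14, a related peptidase, was higher at day 8 (1.47, adjusted p = 0.000199). Of 10 tested matrix proteins that bind collagen, 1 was lower and 2 higher at day 0, 7 lower and 1 higher at day 8, and 9 lower and 0 higher at day 16 (median -3.92). Sparc, a matrix glycoprotein that binds fibrillar and type IV collagen, was at 178 and 172 against 1165 and 1161 FPKM at day 16 (-2.72). It was lower at day 0 as well (-1.15, adjusted p = 9.73e-06; 0.128 on the day 0 libraries alone). The 2 members higher at day 0 were Thbs1 (1.42) and Fn1 (0.46). Neither passed when limma was fitted to that day only (adjusted p of 0.177 and 0.171).

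Basement membrane proteins other than collagen were split at day 0, with 3 of 13 tested lower and 3 higher in the 1343KO line. The lower ones were the laminin chains Lama1 (-2.06), Lamb1 (-0.90) and Lamc1 (-0.72). Agrn (0.45) was among the 3 higher ones, and it did not pass when limma was fitted to that day only (adjusted p = 0.159). The Lamc1 call ended without WT day 0 replicate 2, without the filter and on the day 0 libraries alone (adjusted p of 0.0612 to 0.185), and those of Lama1 and Lamb1 on the day 0 libraries alone (0.128 and 0.159). At day 8, 7 were lower and at day 16, 12, with none higher. Of 7 tested collagen receptors, 1 was lower (Itgb1) and 1 higher (Ddr1) at day 0, 5 were lower at day 8 and all 7 at day 16, among them Itgb1, the shared integrin chain (-1.62), and Ddr2, a receptor kinase for fibrillar collagen (-2.82). The day 0 call of Ddr1 (0.67, adjusted p = 0.0361) ended without any 1 library of day 0 or of WT at days 8 and 16 (0.0621 to 0.197), without the filter and with the replicate block. Of 9 tested collagen-degrading proteases and their inhibitors, none passed at day 0, 5 were lower and 2 higher at day 8, and 7 were lower and 1 higher at day 16. Mmp2, a gelatinase, was lower at both days (-2.46 and -2.93). Of 16 tested regulators of mesenchyme, cartilage and tendon, 1 was higher at day 0 (Tgfb1, a growth factor), 9 were lower at day 8 and 12 at day 16, with Creb3l1, a secretory pathway factor of collagen-making cells (-3.06), in front. The Tgfb1 call (0.94, adjusted p = 0.0264) ended, leaving 0, without either 1343KO day 0 library, WT day 0 replicate 2 or either WT day 8 library (0.051 to 0.154) and without the filter (0.108).

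Markers of fibroblasts and mesenchyme other than collagens were mostly lower in the 1343KO line at days 8 and 16, as were most tested fibrillar genes. Their summed FPKM over 10 genes was 12.2 to 12.7, 20.5 to 23.6 and 34.7 to 36.6 in the 1343KO line at days 0, 8 and 16, and 20.4 to 22.6, 113 to 118 and 1062 to 1121 in WT. Of 9 tested, 1 was lower at day 0, 7 were lower and 1 higher at day 8, and 8 were lower at day 16. The median difference of the 9 was -0.06, -2.53 and -2.22 at days 0, 8 and 16. For the tested fibrillar genes it was 0.29, -2.29 and -4.69. Unlike the fibrillar median, the marker median at day 16 was not below that at day 8, though for some markers the gap widened. From day 8 to day 16, 4 of the 9 had the lower change in the 1343KO line (8.20% of all genes). None had the higher (8.50%), 5 did not pass, and the median difference of changes was -1.79. The marker sums were apart already at day 0, where the fibrillar sums overlapped. Lum, a small proteoglycan of collagen fibrils, was at 4.54 and 3.69 FPKM in the 1343KO line at day 16, against 372 and 344 FPKM in WT. Fap was listed at 0 in both libraries of every 1343KO group and of WT at day 0. Several of these markers, among them Lum, Postn and Twist2, also stand in the lists of partners and regulators. Markers of visceral endoderm summed to 66.7 to 87.1, 125 to 143 and 82.4 to 92.0 FPKM over 8 genes in the 1343KO line at days 0, 8 and 16, and to 89.0 to 103, 2194 to 2243 and 11380 to 11410 FPKM in WT. All 8 were lower in the 1343KO line at days 8 and 16. Of 6 tested endothelial markers none passed at day 0, 5 were lower and 1 higher at day 8, and 5 were lower at day 16. Of 4 tested smooth muscle markers, 2 were higher at day 0, 2 lower at day 8, and 2 lower and 1 higher at day 16. Of 5 simple epithelium markers, 4 were higher at day 0, 2 higher and 2 lower at day 8, and 1 higher and 3 lower at day 16. The part of cell make-up in the collagen differences was not tested.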

How the data were processed

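Poly(A) RNA libraries were made from total RNA with the NEBNext Ultra II kit, per the labels' protocols. The deposited values are FPKM per gene, which the authors computed with Cufflinks 2.1.1 on GRCm38 (mm10), per the submitters' processing notes. Which aligner and annotation were used, and whether strand was, is not given in the sources used here. FPKM depends on how Cufflinks splits reads between overlapping genes, and 13 collagen genes share exon bases with another gene. Of 6620 genes with a median of 10 FPKM or more, 17 have a 0 in some library, which makes a 0 uncertain, and the text says that a gene is listed at 0.

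Groups came from the titles and time labels. The labels do not tell whether replicates are separate cultures, and p-values reflect no more than the spread between the libraries at hand, possibly technical. Correlations between the replicates of a group were 0.97 to 0.975 across genes. Depth was estimated from values of up to 3 fragments on transcripts of 1500 nt or more, with a 200 nt fragment assumed, where 86.1% to 88.7% of values lay within 5% of a whole number. It is approximate, so no count test was run.

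A model of log2(FPKM + 1) with a mean for each group was fitted to the 12 libraries with limma 3.58.1 in R 4.3.3 (variance trend, 6 residual degrees of freedom), with 12 two-sided contrasts. The smallest p of an exact permutation test of 2 against 2 libraries is 0.333, and limma's calls therefore use a spread pooled over genes and groups. In simulated data for 1343KO against WT at day 16, 200 of 16289 genes were changed by 1 or 2 on the log2(FPKM + 1) scale. The fit recovered 59% of the changes of 1 and 83% of those of 2, with 3.4% of its calls false. For low genes such changes are not 2-fold or 4-fold in FPKM. In the data 52.6% of genes passed at day 16, far more than were changed in the simulation, so these shares need not hold for the real calls. The choices varied were the pseudocount (0.1), the filter (none, or a mean of 5 FPKM), the scaling (TPM, or median-of-ratios), a block for the replicate number, and the libraries fitted (the 4 compared alone, or all but 1).

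Collagen genes could all be named, and of each partner list up to 4 called genes with the smallest p in a contrast. Members, classes and lists were chosen with earlier results of these data known. Coordinates are those of the table on GRCm38 with starts counted from 1, and equal GENCODE M21 for all 44 genes. Promoters are from RefSeq (GRCm38.p6). Python 3.11.15 made the descriptive tables and figures.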

Additional observations from a re-analysis of the deposited data

Results flagged for a closer look

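The results here are collagen genes whose change with time differed between the lines, by a test of the difference itself. Values are on the log2(FPKM + 1) scale.

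From day 0 to day 8, the change in the 1343KO line minus that in WT was negative and passed for 13 collagen genes, first among them Col4a5 (-3.03), Col5a1 (-2.78), Col23a1 (-2.70), Col1a1 (-2.51), Col5a2 (-2.49), Col1a2 (-2.48), Col4a6 (-2.42) and Col3a1 (-2.29). It was also negative for Col9a1 (-1.57), Col6a1 (-1.57), Col8a2 (-1.26), Col18a1 (-1.03) and Col6a2 (-0.92). It was positive for Col4a2 (0.43). Of all tested genes, 12.7% passed as negative and 15.6% as positive. Adjusted p ran from 8.84e-06 to 0.0413 (limma). The Col8a2 call ended without 1343KO day 0 replicate 1, 1343KO day 8 replicates 1 or 2, WT day 0 replicate 2, WT day 8 replicate 2 (adjusted p 0.0519 to 0.079) and with pseudocount 0.1, no filter (0.0862 to 0.117). The Col6a2 call ended without 1343KO day 0 replicates 1 or 2, 1343KO day 8 replicate 2, WT day 0 replicates 1 or 2, WT day 8 replicates 1 or 2, WT day 16 replicates 1 or 2 (adjusted p 0.0532 to 0.125) and with no filter, mean of at least 5 FPKM (0.0746 to 0.0867). The Col4a2 call ended with TPM scaling (0.0569).

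From day 8 to day 16, the change in the 1343KO line minus that in WT was negative and passed for 19 collagen genes, first among them Col1a1 (-4.59), Col14a1 (-4.32), Col9a2 (-4.29), Col16a1 (-4.18), Col1a2 (-4.16), Col6a3 (-4.07), Col12a1 (-4.01) and Col6a2 (-3.73). It was also negative for Col6a1 (-3.35), Col5a2 (-3.09), Col3a1 (-2.97), Col11a1 (-2.65), Col27a1 (-1.99), Col5a1 (-1.71), Col8a2 (-1.61) and Col25a1 (-1.33). It was also negative for Col4a5 (-0.96), Col4a1 (-0.68) and Col4a2 (-0.36). It was positive for Col18a1 (0.54) and Col23a1 (1.95). Of all tested genes, 8.20% passed as negative and 8.50% as positive. Adjusted p ran from 1.06e-05 to 0.0452 (limma). The Col8a2 call ended with pseudocount 0.1, no filter (0.0513 to 0.139). The Col25a1 call ended with pseudocount 0.1 (0.124). The Col16a1 call ended without 1343KO day 16 replicates 1 or 2, WT day 8 replicates 1 or 2, WT day 16 replicates 1 or 2 (adjusted p 0.0508 to 0.0581) and with pseudocount 0.1, no filter (0.0994 to 0.148). The Col4a5 call ended without 1343KO day 8 replicates 1 or 2, 1343KO day 16 replicate 2, WT day 8 replicates 1 or 2, WT day 16 replicates 1 or 2 (adjusted p 0.0733 to 0.11) and with pseudocount 0.1, no filter, TPM scaling (0.0825 to 0.321). The Col4a2 call ended without 1343KO day 8 replicates 1 or 2, 1343KO day 16 replicates 1 or 2, WT day 0 replicates 1 or 2, WT day 8 replicates 1 or 2, WT day 16 replicates 1 or 2 (adjusted p 0.062 to 0.13) and with pseudocount 0.1, no filter, TPM scaling, replicate block (0.0562 to 0.091). The Col4a1 call ended without 1343KO day 8 replicates 1 or 2, 1343KO day 16 replicate 2, WT day 8 replicates 1 or 2, WT day 16 replicates 1 or 2 (adjusted p 0.0809 to 0.112) and with no filter, TPM scaling (0.0553 to 0.2). The Col18a1 call ended without 1343KO day 8 replicate 2, WT day 8 replicate 2 (adjusted p 0.0512 to 0.0527) and with no filter (0.0566).

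From day 0 to day 16, the change in the 1343KO line minus that in WT was negative and passed for 24 collagen genes, first among them Col1a1 (-7.09), Col1a2 (-6.64), Col5a2 (-5.58), Col3a1 (-5.26), Col6a3 (-5.04), Col6a1 (-4.91), Col6a2 (-4.65) and Col12a1 (-4.62). It was also negative for Col5a1 (-4.49), Col16a1 (-4.29), Col9a2 (-4.14), Col4a5 (-3.99), Col14a1 (-3.87), Col11a1 (-3.49), Col4a6 (-3.22) and Col8a2 (-2.87). It was also negative for Col27a1 (-2.59), Col11a2 (-1.52), Col25a1 (-1.49), Col9a1 (-1.26), Col2a1 (-1.07), Col8a1 (-0.81), Col23a1 (-0.75) and Col18a1 (-0.49). Of all tested genes, 18.2% passed as negative and 21.7% as positive. Adjusted p of the collagen genes ran from 1.38e-07 to 0.0455 (limma). The Col8a1 call ended without 1343KO day 0 replicates 1 or 2, 1343KO day 16 replicates 1 or 2, WT day 0 replicates 1 or 2, WT day 8 replicates 1 or 2, WT day 16 replicate 2 (adjusted p 0.0559 to 0.111) and with pseudocount 0.1, no filter, TPM scaling, replicate block (0.0503 to 0.179). The Col23a1 call ended without 1343KO day 0 replicates 1 or 2, 1343KO day 16 replicates 1 or 2, WT day 0 replicates 1 or 2, WT day 8 replicates 1 or 2, WT day 16 replicates 1 or 2 (adjusted p 0.0593 to 0.112) and with pseudocount 0.1, TPM scaling, replicate block (0.0546 to 0.243). The Col9a1 call ended with pseudocount 0.1 (0.0521). The Col2a1 call ended without 1343KO day 0 replicate 2, 1343KO day 16 replicate 1, WT day 0 replicates 1 or 2, WT day 8 replicates 1 or 2, WT day 16 replicates 1 or 2 (adjusted p 0.0633 to 0.141) and with no filter, replicate block (0.0512 to 0.22). The Col16a1 call ended with no filter (0.0756). The Col11a2 call ended without 1343KO day 0 replicate 2, 1343KO day 16 replicate 1, WT day 0 replicate 2, WT day 16 replicate 1 (adjusted p 0.05 to 0.0647) and with no filter (0.106).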

How the results depend on the processing

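The results tried were all called collagen genes and, between the lines only, up to 4 called genes of each partner list with the smallest p. Weaker partner calls were not tried, so the share kept does not stand for all partner calls. Of these 278 results, 208 kept their direction and their side of the threshold under every alternative that could be fitted. The other 70 lost the call in 303 of the 5144 alternative values, and none of the 5144 reversed. With single libraries left out, the number of collagen genes called between the lines was 3 to 4 at day 0 (3 with all libraries), 17 to 20 at day 8 (19) and 24 to 26 at day 16 (25). Within the 1343KO line the count was 4 to 8 from day 0 to day 8 (7), 0 to 3 from day 8 to day 16 (2) and 9 to 13 from day 0 to day 16 (13). In WT it was 18 to 25, 22 to 27 and 28 to 30 for those spans (24, 26 and 30), and for the difference of the lines' changes from day 0 to 8, day 8 to 16 and day 0 to 16 it was 12 to 15, 16 to 21 and 20 to 24 (14, 21 and 24). The 1343KO count of days 0 to 8 was 4 without 1343KO day 8 replicate 2. That of days 8 to 16 was 0 without 1343KO day 8 replicate 2, 1343KO day 16 replicate 1 or either WT day 16 library, and 1 without 1343KO day 8 replicate 1, 1343KO day 16 replicate 2 or either WT day 8 library.

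The filter at a mean of 5 FPKM leaves 17 collagen genes to test instead of 33. With it the count was 15 of 17 between the lines at day 16 and 7 of 17 in the 1343KO line from day 0 to day 16. It was 15, 17 and 17 in WT from day 0 to 8, day 8 to 16 and day 0 to 16, and 15 for the difference of changes from day 0 to day 16. On the 4 libraries compared alone, limma called 0 between the lines at day 0 (5 at an unadjusted p under 0.05), and in the 1343KO line 2 from day 0 to day 8, 0 from day 8 to day 16 (7 at an unadjusted p under 0.05) and 8 from day 0 to day 16. Over all 16289 genes that fit called 0 at day 0 and 0 in the 1343KO line from day 8 to day 16 (2489 and 1826 at an unadjusted p under 0.05). The cause of the losses on the 4 libraries alone was not tested. Scaling moved the share of calls that were higher, over all tested genes, from 63.8% to 53.5% (TPM scaling) in the 1343KO line over days 0 to 8 and from 67.9% to 57.0% (median-of-ratios scaling) over days 0 to 16. For the differences of changes it moved from 55.0% to 40.8% (TPM scaling, days 0 to 8), from 50.9% to 39.8% and from 54.4% to 43.6% (median-of-ratios scaling, days 8 to 16 and 0 to 16).

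Libraries with the same replicate number did not deviate together: over 15 pairs of groups the correlations of their deviations were -0.0358 to 0.036, and 0 were over 0.1. The numbers were therefore not taken as pairs. With the replicate block the 1343KO count of days 8 to 16 was 1, and the other 11 counts stayed within 1.5 times.

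At this depth a member under 0.1 FPKM rests on a few fragments, so small differences among the low genes were not detectable.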

Other observations

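The ratio of Col3a1 to Col1a1 in the 1343KO line was 1.09 and 1.01 at day 0, 0.988 and 0.668 at day 8, and 3.06 and 3.18 at day 16. The WT ratios were 1.59 and 0.928, 0.732 and 0.908, and 0.912 and 0.876 for days 0, 8 and 16. The 1343KO day 16 libraries were above the other 10 in this ratio. Ranked by FPKM over all genes, Col1a1 was 8900 and 8969 in the 1343KO line at day 16, against 46 and 41 in WT.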
